A study of Mus musculus with 30 samples.

Results

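The 6 genes *Dct*, *Chrna4*, *Acpp*, *Sulf2*, *Synj2* and *Chic1* were examined in livers of mice fed protein-restricted or control diets, out of 14173 genes in the count tables. They were picked by name for large falls in earlier results of these data, so their falls under restriction are given as a description without a test. All 6 passed the filter on low counts, which kept 12561 genes. The name under which they were grouped, genes nearly lost under protein restriction, fitted *Dct*, *Chrna4* and *Acpp* on Cas-5%, where their mean levels were 2.01%, 1.56% and 1.92% of those on Cas-20%. Without Cas-5% replicate 5 the share of *Chrna4* was 0.957%, and without Cas-5% replicate 6 that of *Acpp* was 1.14%. The name did not hold for *Synj2*, which kept 36.5% of its level, nor for *Chic1*, which kept 16.4%.

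Liver RNA came from 30 male C57BL6/J mice aged 6 months, with 6 mice and 6 libraries per diet. Cas-20% and Cas-5% were built on 20% and 5% casein, and Soy-20% and Soy-10% on 20% and 11.5% soy protein, while in Soy-20% + SAA methionine and cysteine were added to 20% soy. Methionine was 0.57 g per 100 g in Cas-20%, 0.15 in Cas-5%, 0.22 in Soy-20%, 0.58 in Soy-20% + SAA and 0.13 in Soy-10%, and cysteine was 0.41, 0.1, 0.22, 0.41 and 0.13. Mice were singly housed, were acclimated to Cas-20% or Soy-20%, spent 12 weeks on the diets and were killed after a 4 h fast. Casein mice and soy mice therefore differed in the acclimation diet too. Levels are counts from the 3′ ends of transcripts, scaled between libraries by the authors, and are called normalized counts.

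Restriction of dietary protein lowers the supply of methionine, and the liver responds by changing methionine and one-carbon metabolism, amino acid breakdown and lipid synthesis. None of the 6 genes is a textbook gene of that response. *Dct* encodes dopachrome tautomerase of melanin synthesis, *Chrna4* the alpha 4 subunit of nicotinic acetylcholine receptors, and *Acpp* (also *Acp3*) prostatic acid phosphatase, which also hydrolyses AMP outside cells. *Sulf2* encodes an extracellular sulfatase that removes 6-O-sulfate groups from heparan sulfate. *Synj2* encodes synaptojanin 2, a phosphatase of membrane inositol lipids, and *Chic1* a small palmitoylated membrane protein of little known function.

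Total counts ran from 7694015 to 14565542 per library, with a median of 10803734. Of the Soy-20% + SAA libraries, 4 (replicates 3 to 6) stood apart by a dependence of counts on the GC content of transcript 3′ ends, with slopes of 0.0585 to 0.206 log2 units per 10% GC. The slopes of the other 26 libraries lay between -0.0645 and 0.032. The last 200 nucleotides of the members' transcripts had a GC content of 39.5% to 48.0%, against a median of 40.5% over the genes tested. The members' fold changes against Soy-20% + SAA are therefore given with and without those 4 livers. For Soy-10% against Soy-20% + SAA, edgeR's test called 3077 genes with them and 131 without, and the counts of listed genes given for that comparison are from all 30 livers. Hepatocyte markers were detected in all 30 livers. In a bulk sample, fewer cells of a type and less RNA per cell cannot be told apart.

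*Dct* lies on the minus strand at chr14:118012790-118052244 in GRCm38. The promoter window of 250 bases upstream of its RefSeq start (GRCm38.p6, chr14:118052247-118052496, minus strand) is shown because the gene is best known from pigment cells, where its promoter is bound through E-box-like elements. Capitals mark matches on either strand to the M-box core (CATGTG), the CCAAT box (CCAAT) and the GC box (GGGCGG), which do not overlap each other. The M-box core occurred 2 times, at -232 and -150 from the start, the CCAAT box at -223 and the GC box at -87. An M-box core was present in 12.3% of 32851 promoter windows of the same length, and among the 6 genes in that of *Dct* only. The E-box (CACGTG) and the nuclear receptor half-site (AGGTCA) were not matched in any of the members' windows.
*Dct* promoter: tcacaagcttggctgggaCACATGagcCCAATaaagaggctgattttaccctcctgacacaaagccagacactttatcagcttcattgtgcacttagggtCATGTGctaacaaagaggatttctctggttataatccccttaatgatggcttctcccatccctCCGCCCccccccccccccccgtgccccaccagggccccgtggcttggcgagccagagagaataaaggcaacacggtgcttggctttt

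In Cas-20% livers the normalized count of *Dct* was 91.9 at the lowest, 124 at the median and 157 at the highest. On Cas-5% it was 0, 1.76 and 5.76, and 2 of the 6 livers had no read. The 16 reads of the Cas-5% livers made 0.26 CPM (counts scaled to the library total, 95% Poisson interval 0.149 to 0.423, counting error only), against 11.0 CPM (10.2 to 11.8) on Cas-20%. *Dct* was detected in every liver of the other 4 diets. On Soy-10% the lowest, median and highest values were 6.46, 12.5 and 26.6. Soy-20% livers had 22.5, 53.7 and 67.4. Soy-20% + SAA livers had 69, 114 and 240, the broadest range of *Dct* in counts. The mean levels thus formed 3 tiers, with Cas-20% (124 ± 26, SD, n = 6) and Soy-20% + SAA (127 ± 64.8) overlapping at the top, Soy-20% (50 ± 17.4) below every Cas-20% liver, and the restricted diets last. Cas-5% livers (2.48 ± 2.66) lay below all Soy-10% livers (13.6 ± 7.01), while a single Soy-20% liver lay within the range of Soy-10%. From the diet means, *Dct* was 49.8-fold lower on Cas-5% than on Cas-20% and 9.34-fold lower on Soy-10% than on Soy-20% + SAA.

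A contribution of pigment cells can be read only from the markers in the table. *Pmel*, the premelanosome protein gene, was the single melanocyte marker of 5 with counts here. *Tyr*, *Tyrp1*, *Mlana* and *Sox10* were not among the genes of the count tables. *Pmel* was between 0 and 8.71 normalized counts over the 30 livers, with medians of 1.55 on Cas-20%, 4.40 on Cas-5%, 2.08 on Soy-20%, 4.14 on Soy-20% + SAA and 2.18 on Soy-10%. Its median on Cas-5% was above that on Cas-20%, opposite to *Dct*, but the livers overlapped (2.41 to 6.73 and 0.965 to 7.97). Among the soy diets the median of *Pmel* was highest on Soy-20% + SAA, as was that of *Dct*. At such low counts the part of pigment cells was not tested. For the genes of each pathway, a rise or fall means an adjusted p of 0.05 or less in edgeR's quasi-likelihood test over 30 livers. Of 18 melanogenesis genes listed, 8 were tested, and on Cas-5% against Cas-20% 1 fell and none rose, where 24.6% of all genes were called in either direction. On Soy-10% against Soy-20% + SAA 1 fell and 2 rose, beside 24.5% of all genes called. The gene that fell on Cas-5% was *Ddt*, D-dopachrome tautomerase, an abundant liver protein related to the cytokine MIF, with a log2 fold change of -0.96 (SE 0.08). The median of the list was 0.04, against 0.01 over all genes.

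*Chrna4* (chr2:181018380-181043546, minus strand) varied most of the 6 genes between livers of the same diet on 4 of the 5 diets, by the coefficient of variation. On Cas-5% *Acpp* varied more (124% against 113%). On Cas-20% the lowest, median and highest normalized counts were 34.8, 118 and 428, a 12.3-fold range. On Soy-20% + SAA they were 34.5, 90.8 and 347, and on Soy-20% 6.03, 45.7 and 186. On the restricted diets the values were 4.06, 8.66 and 29.4 for Soy-10% and 0, 1.47 and 8.82 for Cas-5%. The livers of Cas-5% lay below all livers of Cas-20% and of Soy-20% + SAA, and so did those of Soy-10%. In the order Cas-20% (mean 192 ± 184, SD, n = 6), Soy-20% + SAA (122 ± 114), Soy-20% (64.2 ± 63.1), Soy-10% (14.1 ± 12.1) and Cas-5% (3 ± 3.39), the livers of each diet overlapped with those of the next. The coefficient of variation of *Chrna4* was between 85.2% and 113% on all 5 diets, whereas that of *Sulf2* was between 19.5% and 38.1%. Of 18 genes listed for nicotinic receptors, only the alpha 2 subunit *Chrna2*, a paralog, was tested. Its means were 33.0 on Cas-20% and 46.8 on Cas-5%, and it was not called (log2 fold change 0.52, SE 0.26, adjusted p 0.14 in edgeR's quasi-likelihood test).

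*Acpp* (chr9:104288251-104337748, minus strand) had 39.5, 43.8 and 164 normalized counts at the lowest, median and highest Cas-20% liver. On Cas-5% the values were 0, 0.961 and 4.4, with no read in 3 of 6 livers and 10 reads in all, or 0.163 CPM (0.078 to 0.299). The mean of Cas-20% (75.6 ± 53.2) was raised by replicates 1 and 3, with 120 and 164. These were also the highest Cas-20% livers for *Chrna4*, with 412 and 428. On Soy-20% *Acpp* was 20.9, 33.1 and 51.3, and on Soy-20% + SAA 31.6, 45.4 and 89.5. On Soy-10% it was 9.11, 13.7 and 18, a narrow band between the other soy diets and Cas-5% that overlapped with neither. Of 19 listed acid phosphatases and genes of extracellular AMP breakdown and adenosine signalling, 14 were tested. Of these, 2 fell and 1 rose on Cas-5% against Cas-20% (list median 0.04), beside 24.6% of all genes called. On Soy-10% against Soy-20% + SAA 2 fell and 3 rose, beside 24.5% of all genes. *Adora1*, the adenosine A1 receptor, fell by 0.68 on the log2 scale (SE 0.16), *Acp5*, tartrate-resistant acid phosphatase, fell by 0.19 (SE 0.06), and *Alpl*, tissue-nonspecific alkaline phosphatase, rose by 1.13 (SE 0.18). The paralog *Acp2* had means of 408 and 400 on Cas-20% and Cas-5%.

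*Sulf2* (chr2:166073089-166155663, minus strand) kept reads in every liver. Its lowest, median and highest values were 92, 142 and 169 on Cas-20% and 7.91, 12.6 and 17.6 on Cas-5%. On Soy-10% they were 16.2, 28.4 and 38, on Soy-20% 46.1, 82.7 and 115, and on Soy-20% + SAA 72.8, 108 and 180. Both restricted diets lay below every liver of the 3 diets with 20% protein, and they overlapped with each other. The 3′ end of *Sulf2* overlaps the 3′ end of *Ncoa3* on the opposite strand, which ends at position 166073242, and the strand setting of the counting is not given in the sources used here. *Ncoa3*, a nuclear receptor coactivator, had means of 126 on Cas-20% and 128 on Cas-5%.

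Of 33 listed genes that make, edit or carry heparan sulfate, 24 were tested. On Cas-5% against Cas-20% 4 fell and 2 rose, and on Soy-10% against Soy-20% + SAA 2 fell and 3 rose, beside 24.6% and 24.5% of all genes called. *Gpc1*, glypican 1, a membrane-anchored carrier of heparan sulfate, was the closest in size, with means of 140 on Cas-20%, 35.9 on Cas-5%, 119 on Soy-20%, 173 on Soy-20% + SAA and 47.9 on Soy-10%. Its log2 fold change was -1.94 (SE 0.37) for casein and -1.85 (SE 0.35) for soy, with adjusted p-values of 0.00018 and 0.00044 in edgeR's test. *Sdc1*, syndecan 1, the main heparan sulfate carrier of hepatocytes, fell by 0.60 (SE 0.12) on Cas-5% and was not called on Soy-10%, with a log2 fold change of -0.17 (SE 0.12). *Hs6st1*, which adds the 6-O-sulfates that *Sulf2* removes, fell by 0.42 (SE 0.08) on Cas-5%. It was not called on Soy-10% against Soy-20% + SAA, with a log2 fold change of 0.02 (SE 0.08). Its means were 1166 on Cas-20%, 864 on Cas-5%, 936 on Soy-20%, 856 on Soy-20% + SAA and 869 on Soy-10%. The paralog *Sulf1* was low on every diet, with means of 5.44 to 9.62.

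*Synj2* (chr17:5941280-6044290, plus strand) had low counts and a small fall. On Cas-20% the lowest, median and highest livers had 10.1, 27.8 and 54.1, and on Cas-5% 8.73, 11.9 and 13.5, so that replicate 2 of Cas-20% lay within the Cas-5% range. On Soy-10% the values were 12.3, 18.4 and 21.6, and on Soy-20% 14.6, 28.6 and 33.7, which overlapped. On Soy-20% + SAA they were 42, 53.6 and 69, with a mean (55.4 ± 11.6) 180% of that on Cas-20%. The reads of all Cas-5% livers came to 70, so single values carry a large counting error. Among phosphoinositide phosphatases, 3 of 22 tested fell and 2 rose on Cas-5% against Cas-20%, beside 24.6% of all genes called in either direction. On Soy-10% against Soy-20% + SAA 1 fell and 4 rose, beside 24.5% of all genes. On Cas-5% against Cas-20% these genes were called about as often as all genes. *Mtmr7*, a myotubularin-related phosphatase, fell by 1.53 (SE 0.30) on Cas-5%, and the paralog *Synj1* rose by 0.30 (SE 0.07).

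*Chic1* (chrX:103356476-103396092, plus strand) was low on Soy-20% as well as on the restricted diets. Its lowest, median and highest livers had 37.8, 64.5 and 93.2 on Cas-20%, and 6.79, 10.5 and 16 on Cas-5%. On Soy-20% + SAA they had 31.5, 41.8 and 47.5, the tightest of all 30 groups (6 genes on 5 diets, coefficient of variation 13.5%). On Soy-20% the values were 12.2, 14 and 21.1, and on Soy-10% 6.09, 13.2 and 16.1. Soy-20% livers thus lay below all livers of both diets with full methionine, and overlapped with the restricted diets although the diet held 20% protein. *Chic1* had been noted before for Soy-20% against Soy-20% + SAA, so this is a description. The paralog *Chic2* had means of 292 and 292 on Cas-20% and Cas-5%. In a list of CHIC proteins and the transferases that attach palmitate to proteins, 5 of 18 tested fell and 2 rose on Cas-5% against Cas-20%. On Soy-10% against Soy-20% + SAA 3 fell and 4 rose. Of all genes, 24.6% and 24.5% were called in either direction. The transferase *Zdhhc2* rose, opposite to *Chic1*, with means of 15.3 on Cas-20%, 75.6 on Cas-5%, 34.2 on Soy-20%, 17.6 on Soy-20% + SAA and 57.5 on Soy-10% (log2 fold change 2.31, SE 0.24, for casein and 1.69, SE 0.23, for soy).

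The promoter window of *Chic1* (GRCm38.p6, chrX:103356226-103356475, plus strand, RefSeq) is shown as the contrast to that of *Dct*. It held 21 CpG dinucleotides and 58.4% GC, against 5 CpG in the *Dct* window and a median of 6 over all windows. None of the motifs searched, including the TATA box (TATAAA), was matched, so no base is in capitals. The windows of *Acpp* and *Synj2* also held no match, and that of *Chrna4* held a GC box, which was present in 32.7% of all windows. For *Sulf2* the window starting at chr2:166155684 held a TATA box and a GC box. Its other window, starting at 166155286, held a CCAAT box only. The windows of *Synj2* (from chr17:5975330) and *Chrna4* (from chr2:181039178) lie inside the gene spans given above.
*Chic1* promoter: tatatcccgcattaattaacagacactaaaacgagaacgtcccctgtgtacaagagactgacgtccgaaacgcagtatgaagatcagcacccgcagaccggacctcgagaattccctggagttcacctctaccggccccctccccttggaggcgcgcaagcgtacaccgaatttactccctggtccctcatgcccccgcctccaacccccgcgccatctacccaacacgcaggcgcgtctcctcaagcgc

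**Figure D1:**
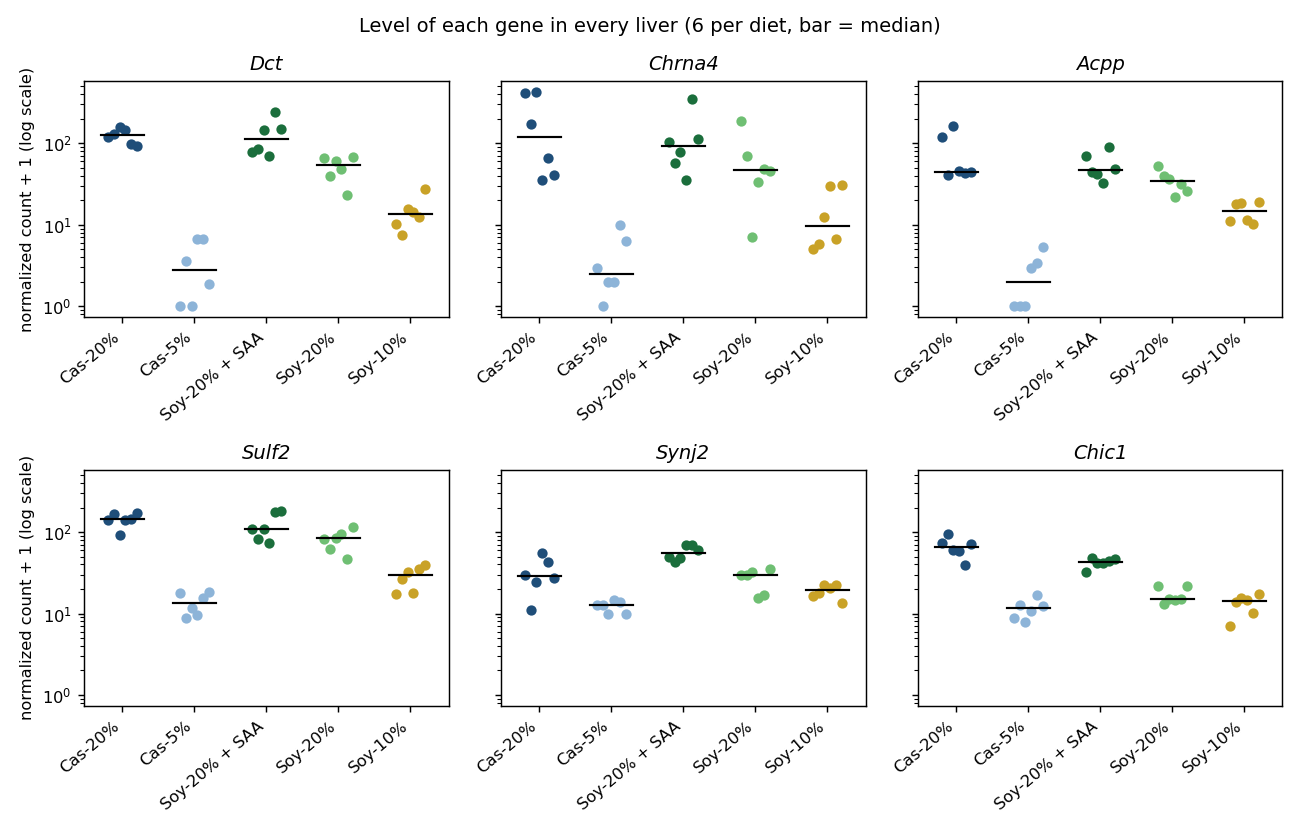
Normalized count plus 1 (log scale) of the 6 genes in each of 30 livers, with 6 livers per diet as points and the median as a bar. *Dct*, *Chrna4* and *Acpp* reach 0 in single Cas-5% livers, *Sulf2*, *Synj2* and *Chic1* in none, and *Chic1* is as low on Soy-20% (median 14) as on Soy-10% (13.2).

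Between diets the falls were ranked among genes with a mean of at least 10 normalized counts on the control diet. For Cas-5% against Cas-20%, *Chrna4* had the 2nd, *Dct* the 3rd and *Acpp* the 4th largest fall of 11913 genes, with log2 fold changes of -5.78 (SE 0.91), -5.52 (SE 0.45) and -5.45 (SE 0.54). *Sulf2* was 17th with -3.43 (SE 0.27), *Chic1* 40th with -2.57 (SE 0.21) and *Synj2* 130th with -1.44 (SE 0.28). For Soy-10% against Soy-20% + SAA the values were -3.22 (SE 0.34) for *Dct*, -3.11 (SE 0.74) for *Chrna4*, -2.16 (SE 0.24) for *Sulf2*, -1.94 (SE 0.38) for *Acpp*, -1.75 (SE 0.22) for *Chic1* and -1.64 (SE 0.25) for *Synj2*, with ranks from 3 to 44 of 11881 genes. Without Soy-20% + SAA livers 3 to 6 they were -2.57 (SE 0.37), -2.52 (SE 0.92), -1.81 (SE 0.28), -2.02 (SE 0.49), -1.68 (SE 0.31) and -1.33 (SE 0.34) in the same order. These comparisons chose the genes. In the same fit, 24.6% of 12561 genes were called for casein and 24.5% for soy at an adjusted p of 0.05 or less. All restricted livers lay below all control livers for 5 of the 6 genes in the casein comparison and for 6 of 6 in the soy comparison, and for 7.53% and 3.2% of all genes.

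The soy diets allow the fall to be divided, because Soy-20% differs from Soy-20% + SAA in the added methionine and cysteine and from Soy-10% in the amount of soy. For *Chic1*, 78.5% of the log2 fall from Soy-20% + SAA to Soy-10% was already present on Soy-20%, and for *Synj2* 68.3%. *Chic1* had been noted before for its difference between Soy-20% and Soy-20% + SAA, so its large share follows from that choice. For *Dct* the share was 41.9%, for *Acpp* 34.5%, for *Chrna4* 30.1% and for *Sulf2* 27.7%. Without Soy-20% + SAA livers 3 to 6 the share was 77.7% for *Chic1*, 61.2% for *Synj2*, 27.3% for *Dct*, 37.3% for *Acpp*, 13.8% for *Chrna4* and 13.9% for *Sulf2*. With the GC slope of each library as a covariate it was 76.8%, 63.8%, 31.7%, 33.6%, 6.13% and 16.7%. By these point estimates the last 4 genes had the larger part of their fall between Soy-20% and Soy-10% in all 3 fits. At that step methionine went from 0.22 to 0.13 g per 100 g and protein from 20% to 11.5%. The log2 fold changes of that step were -1.87 (SE 0.37) for *Dct*, -1.27 (SE 0.40) for *Acpp*, -2.17 (SE 0.78) for *Chrna4* and -1.56 (SE 0.25) for *Sulf2*, and -0.38 (SE 0.25) for *Chic1* and -0.52 (SE 0.27) for *Synj2*. In that comparison 0.494% of all genes were called. Soy-10% livers lay below all Soy-20% livers for *Acpp* and *Sulf2*, as for 0.748% of all genes. The 3 fits share the Soy-20% and Soy-10% livers, so the shares are not independent. Soy-10% and Soy-20% + SAA livers were used to choose the genes, which can enlarge either step. No error was computed for the shares, and whether the 2 steps differ in size was not tested.

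**Figure D2:**
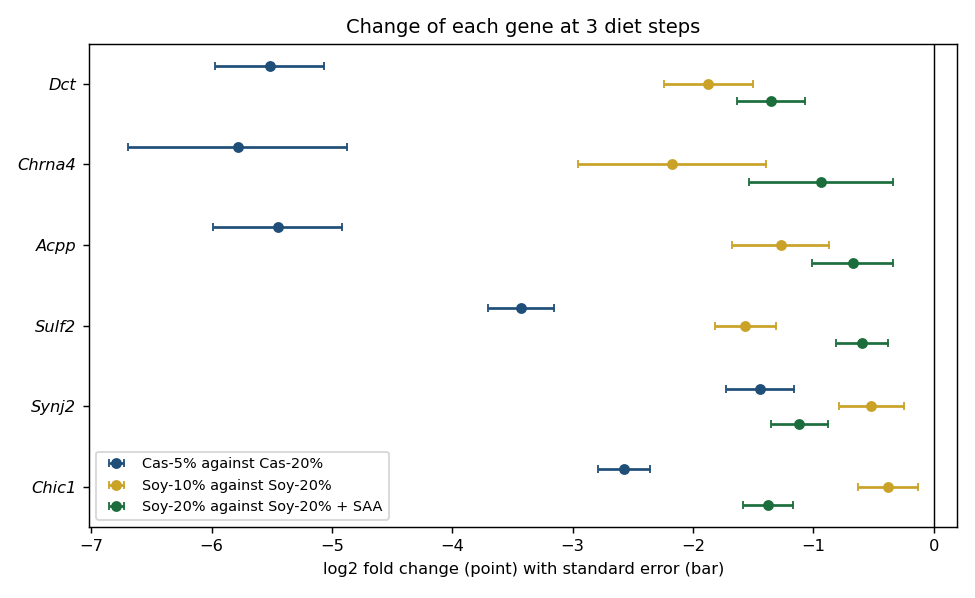
Log2 fold change (point) and standard error (bar) of each gene from the fit of 30 livers, for casein restriction, for soy restriction without added sulfur amino acids, and for the lack of added methionine and cysteine at 20% soy. In *Chic1* and *Synj2* the change without added amino acids (-1.38 and -1.12) is larger than that from Soy-20% to Soy-10% (-0.38 and -0.52), and in the other 4 genes it is smaller. *Chic1* had been noted before for the former change.

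Whether added methionine and cysteine alone changed the genes was tested between Soy-20% and Soy-20% + SAA. The comparison was not used to choose 5 of the genes, although it shares the Soy-20% + SAA livers with one that was. *Dct* was lower on Soy-20%, with a log2 fold change of -1.35 (SE 0.28, adjusted p 0.0035 in edgeR's quasi-likelihood test), and so was *Synj2* with -1.12 (SE 0.24, adjusted p 0.0036). For the other 3 the estimates were also negative but not called, with -0.60 (SE 0.22, adjusted p 0.059) for *Sulf2*, -0.67 (SE 0.34, adjusted p 0.18) for *Acpp* and -0.94 (SE 0.60, adjusted p 0.31) for *Chrna4*. The 95% interval for *Chrna4*, -2.11 to 0.23, holds both no difference and a large one. *Chic1* had been noted for this comparison before, and its value of -1.38 (SE 0.21) is a description. In all, 2 of 5 genes were called, and 14.3% of 12561 genes were called in this comparison, 4.74% as lower on Soy-20%.

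Both calls depended on how the Soy-20% + SAA libraries were treated. With the GC slope of each library as a covariate the log2 fold change of *Dct* was -0.86 (adjusted p 0.46) and that of *Synj2* -0.90 (adjusted p 0.38). Without Soy-20% + SAA livers 3 to 6 they were -0.70 (adjusted p 0.75) and -0.82 (adjusted p 0.69), and in a fit of these 2 diets only they were -1.34 (adjusted p 0.065) and -1.11 (adjusted p 0.055). The direction was the same in all of these fits. *Dct* was 78.4 and 83.9 in Soy-20% + SAA livers 1 and 2, which lack the GC slope, and 69 to 240 in livers 3 to 6, all above the highest Soy-20% liver (67.4). *Synj2* was 42 and 47.8 in livers 1 and 2 and at least 46.5 in the others, above the highest Soy-20% value of 33.7. *Chic1* was 31.5 and 47.5 in livers 1 and 2 and 40.3 to 45.5 in the others, above 21.1. Such a complete separation, with Soy-20% below, was seen for 0.812% of all genes. For *Chic1*, noted before for this comparison, the separation is a description.

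Between the control diets with matched sulfur amino acids, Cas-20% and Soy-20% + SAA, 2 of the 6 genes were called, and 18.6% of all genes. Both groups served as controls in the comparisons that chose the genes. *Chic1* was higher on Cas-20% (log2 fold change 0.64, SE 0.18, adjusted p 0.012 in edgeR's test), with 5 of 6 Cas-20% livers above all Soy-20% + SAA livers. *Synj2* was lower on Cas-20% (-0.84, SE 0.23, adjusted p 0.012), with 5 of 6 Cas-20% livers below all of Soy-20% + SAA. For *Dct* the difference was -0.04 (95% interval -0.55 to 0.47, adjusted p 0.93), and for *Sulf2* 0.22 (-0.18 to 0.62, adjusted p 0.49). *Acpp* (0.49, adjusted p 0.29) and *Chrna4* (0.65, adjusted p 0.45) had wider intervals, of -0.12 to 1.10 and -0.43 to 1.73. With the GC covariate, the adjusted p was 0.09 for *Chic1* and 0.32 for *Synj2*, in a fit of these diets only 0.06 and 0.088, and without Soy-20% + SAA livers 3 to 6 0.42 and 0.66, all with the same directions.

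The restricted diets were compared with each other because they held similar methionine, 0.15 g per 100 g in Cas-5% and 0.13 in Soy-10%. Cysteine was 0.1 and 0.13, and protein 5% and 11.5%. All 6 estimates were lower on Cas-5%. Only *Sulf2*, *Synj2* and *Chic1* passed the filter on low counts within these 2 diets. On Cas-5% *Dct*, *Chrna4* and *Acpp* had 16, 21 and 10 reads in all. They passed the filter in the fit of 30 livers through the diets on which they were higher. Their p-values from that fit are therefore no support for a difference between these 2 diets. In that fit the log2 fold change of *Acpp* was -3.02 (SE 0.69, adjusted p 0.0056 in edgeR's test), that of *Dct* -2.34 (SE 0.62, adjusted p 0.018) and that of *Sulf2* -1.05 (SE 0.32, adjusted p 0.044). In a fit of these 2 diets only, 1 of the 3 genes tested was called, *Sulf2* with -1.04 (SE 0.26, adjusted p 0.015). In the fit of 30 livers *Chrna4* had an estimate near that of *Dct* with a larger error (-2.02, SE 1.29, adjusted p 0.41). In the fit of 30 livers the value for *Synj2* was -0.65 (95% interval -1.24 to -0.05, adjusted p 0.22), and for *Chic1* -0.17 (-0.69 to 0.34, adjusted p 0.78). In the fit of these 2 diets only they were -0.64 (SE 0.21, adjusted p 0.057) and -0.16 (SE 0.27, adjusted p 0.76). Cas-5% livers lay below all Soy-10% livers for *Dct* and *Acpp*, as for 3.99% of all genes. In this comparison 7.17% of genes were called, 4.28% as lower on Cas-5%. Both groups were also used to choose the genes, each against its own control. The call of *Sulf2* in the fit of 30 livers was lost without any of 9 of the 12 livers (adjusted p up to 0.13 in edgeR's test). The adjusted p of *Dct* from that test, no support here in any case, was 0.069 without Soy-10% replicate 6. Protein amount, protein source and acclimation diet cannot be told apart here.

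Over the 5 diets the means of all 6 genes were lowest on Cas-5%, which held 0.15 g methionine and 0.1 g cysteine per 100 g, against 0.13 g of each in Soy-10%. Fitted alone, these 2 diets gave a call for *Sulf2* and none for *Synj2* and *Chic1*. *Dct*, *Chrna4* and *Acpp* did not pass the filter of that fit. The means of *Chrna4*, *Acpp*, *Sulf2* and *Chic1* ranked Cas-20%, Soy-20% + SAA, Soy-20%, Soy-10% and Cas-5%, and those of *Dct* and *Synj2* ranked Soy-20% + SAA first and the other diets in the same order. Soy-20%, with 0.22 g methionine per 100 g and 20% protein, held 82.5% of the Cas-20% level for *Synj2*, 56.6% for *Sulf2*, 44.5% for *Acpp*, 40.5% for *Dct*, 33.4% for *Chrna4* and 24.6% for *Chic1*. Without Soy-20% replicate 1 the share of *Chrna4* was 20.8%. On Soy-10% the shares were 58%, 19.1%, 18.1%, 11%, 7.36% and 18.6% in that order.

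**Figure D3:**
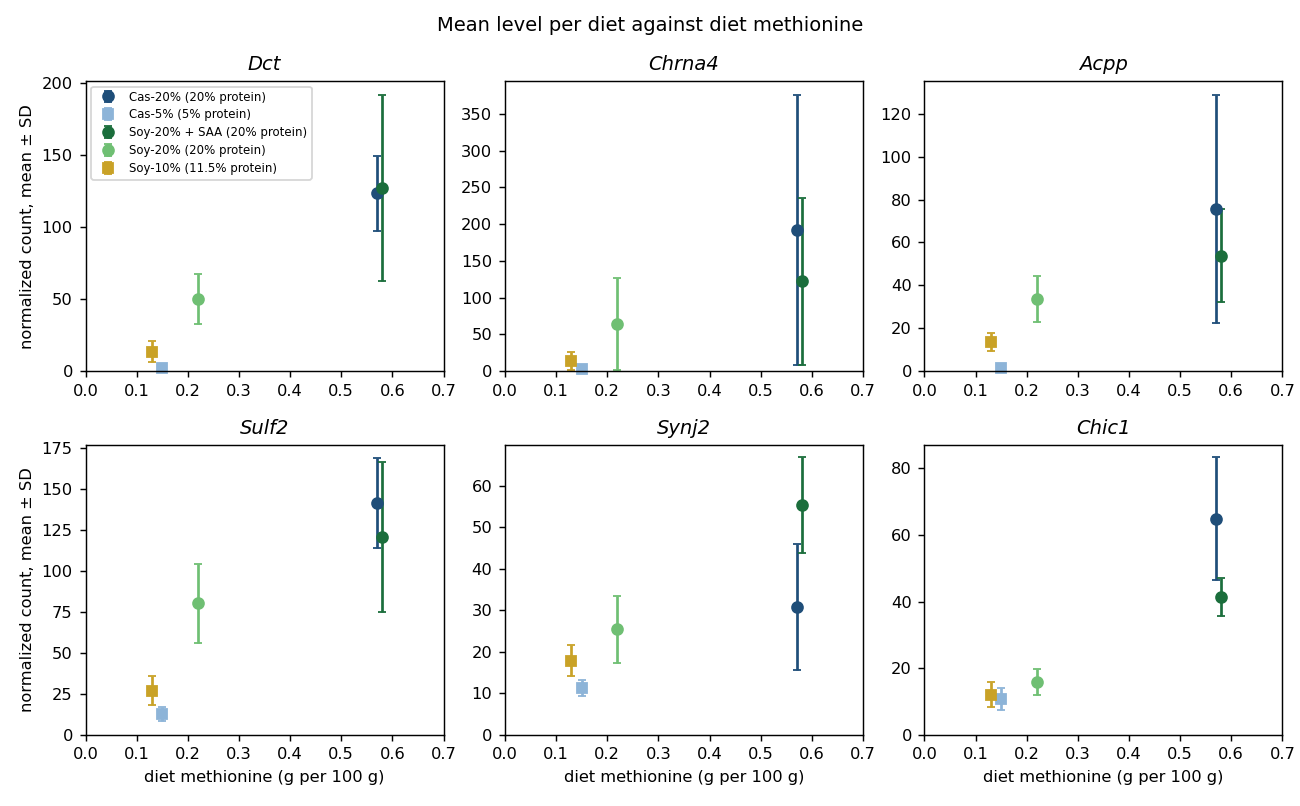
Mean normalized count (point) with SD (bar, n = 6 livers) of each gene on the 5 diets against diet methionine in g per 100 g, with circles for 20% protein and squares for less. Cas-5% (0.15 g) lies below Soy-10% (0.13 g) in all 6 genes, and Soy-20% (0.22 g) lies near the restricted diets in *Chic1* but well above them in *Sulf2*.

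The genes most like each member over the 30 livers, by Pearson r of log2 CPM (prior count 2), differed between members. Since diet differences raise such correlations, r was also computed after the diet means were removed, and no p is given because the genes were searched for among 12555. For *Dct* they were *Bhmt* (r 0.97), which remethylates homocysteine to methionine with betaine, *Dmgdh* (0.96), which acts on the dimethylglycine so formed, and *Agxt2* (0.96), a mitochondrial aminotransferase. *Bhmt* had means of 12099 on Cas-20%, 1861 on Cas-5%, 8211 on Soy-20%, 12716 on Soy-20% + SAA and 3769 on Soy-10%, the order of *Dct*. With diet means removed, r was 0.66 for *Bhmt* and 0.66 for *Dmgdh*, and within the 5 diets it was -0.53 to 0.87 for *Bhmt* and 0.32 to 0.77 for *Dmgdh*. In a list of 12 genes of betaine, sarcosine and methionine metabolism, written after this was seen, those were the only 2 with an r over 0.5 to *Dct*, and the median r was 0.16. Of all genes, 1.54% passed 0.5.

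For *Chrna4* the most alike genes were *Acss2* (r 0.96), which makes acetyl-CoA from acetate in the cytosol, *Acacb* (0.96), acetyl-CoA carboxylase beta, and *Sc5d* (0.95) of cholesterol synthesis. With diet means removed r was still 0.93, 0.89 and 0.90. For *Acss2* it was between 0.91 and 0.98 within each of the 5 diets, with 6 livers each, and 0.93 over the 18 livers of the diets with 20% protein. In the Cas-20% livers with the highest *Chrna4*, replicates 1 and 3, *Acss2* had 3703 and 4017 normalized counts, and in those with the lowest, replicates 4 and 6, it had 1264 and 1018. The Soy-20% liver with 6.03 counts of *Chrna4*, replicate 3, had 848 of *Acss2*, against 1598 to 2874 in the other 5. The large spread of *Chrna4* between mice of the same diet was therefore shared with *Acss2*, by r on all 5 diets. On Cas-5% *Chrna4* had 0 to 11 reads per liver, so r on that diet rests on counts near 0.

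Lipogenic genes as a group were then listed, after this was seen, as 12 genes of fatty acid synthesis and its SREBP and ChREBP control. *Acss2* and *Acacb*, found by the search above, are among the 12, so the list is a description and no separate support. All 12 had a positive diet-centred r with *Chrna4*, 11 of them over 0.5, with a median of 0.80, whereas 2.44% of all genes passed 0.5 and their median was -0.01. ATP citrate lyase *Acly* had 0.92, and its r was between 0.84 and 0.99 within each diet. Fatty acid synthase *Fasn* had 0.82, *Pnpla3*, a lipase of lipid droplets, 0.83, and *Srebf1* itself 0.41. For *Acpp* the median was 0.55 with 9 of 12 over 0.5, and 1.5% of all genes passed 0.5. For *Dct* the median was 0.42, for *Chic1* 0.38, for *Sulf2* 0.31 and for *Synj2* -0.01, with 2, 2, 1 and 0 genes over 0.5. The points of these correlations share libraries and depth, and the values describe these 30 livers.

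**Figure D4:**
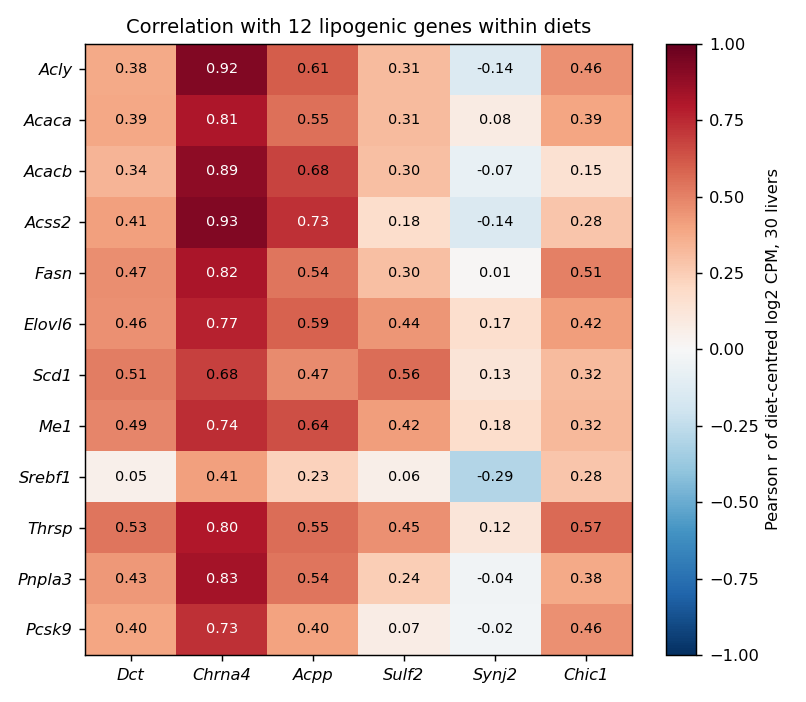
Pearson r, over 30 livers with diet means removed, between the log2 CPM of each of the 6 genes (columns) and 12 lipogenic genes (rows), with the value printed in each cell. The *Chrna4* column runs from 0.41 for *Srebf1* to 0.93 for *Acss2*, the *Acpp* column from 0.23 to 0.73, and the *Synj2* column stays between -0.29 and 0.18.

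**Figure D5:**
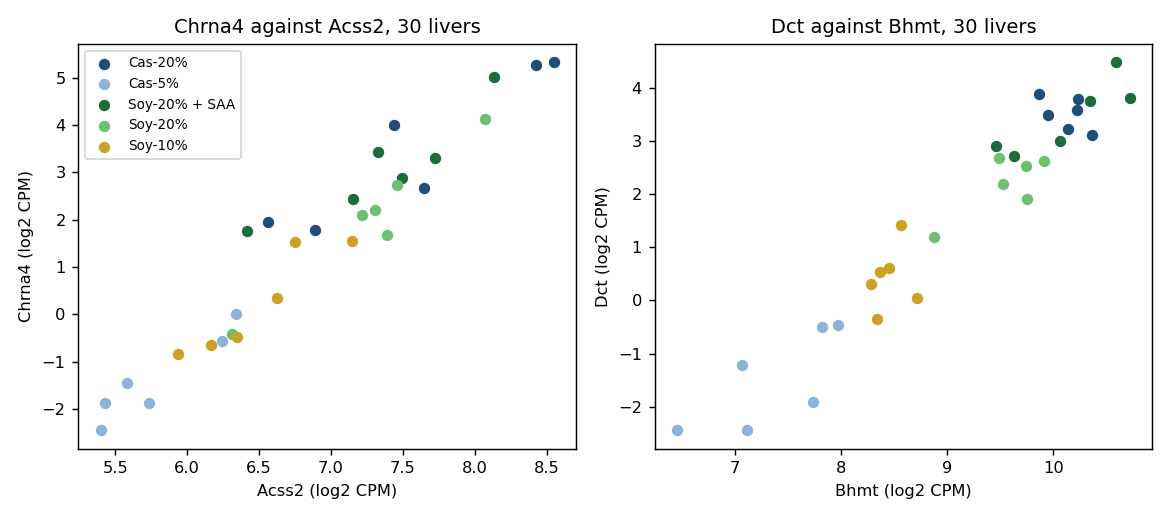
Log2 CPM of *Chrna4* against *Acss2* and of *Dct* against *Bhmt*, with each of 30 livers as a point coloured by diet. Within each diet the *Chrna4* points follow *Acss2* (r 0.91 to 0.98), while the *Dct* points follow *Bhmt* less closely (r -0.53 to 0.87). On Cas-5% *Chrna4* had at most 11 reads per liver and *Dct* at most 7.

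The genes most like the other members were *Slc23a1* (r 0.95), a vitamin C transporter, *Qdpr* (0.94), which regenerates tetrahydrobiopterin, and *Nipsnap1* (0.94) for *Acpp*. For *Sulf2* they were *Spc24* (0.97), a kinetochore gene, *Aldh1b1* (0.95), a mitochondrial aldehyde dehydrogenase, and *Uroc1* (0.94) of histidine breakdown. For *Chic1* they were *Etnk2* (0.93), an ethanolamine kinase, *Slc38a3* (0.92), a glutamine transporter, and *Rdh5* (0.89). *Synj2* had weaker partners, *Hyi* (0.87), *Fahd2a* (0.86) and *Osbpl1a* (0.85). No gene occurred in more than one of these groups.

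Among the members themselves, 15 pairs were compared with diet means removed, by a permutation test within diets. Only *Chrna4* and *Acpp* passed adjustment, with r 0.65 and Spearman's rho 0.65 over 30 livers (p 0.00029 and 0.00033, adjusted p of r 0.0043, 100000 permutations), and r was positive in 5 of 5 diets. Without the 2 livers farthest from the median of *Chrna4* r was 0.72, and over the 18 livers of the diets with 20% protein it was 0.73 (adjusted p 0.030, permutation test), while rho was 0.64 and did not pass (adjusted p 0.16). *Dct* and *Chic1* came next, with r 0.49, rho 0.48 and an adjusted p of 0.06 in the permutation test. Of the 15 values 13 were positive, with a median of 0.26. *Synj2* had the lowest, -0.20 with *Chrna4* and -0.18 with *Chic1*.

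Of the 12 nearest tested genes, on each side of each member, 1 was called lower and none higher on Cas-5% against Cas-20%, where 24.6% of all genes were called. That gene was *Gtf2h5*, a subunit of the transcription factor TFIIH that lies 35496 bases from *Synj2*, with a log2 fold change of -0.49 (SE 0.08). On Soy-10% against Soy-20% + SAA 3 were lower, *Gtf2h5* among them with -0.37 (SE 0.08), and 2 were higher, beside 24.5% of all genes called. On Soy-10% against Soy-20% none was called, beside 0.494% of all genes. *Gpc6*, 36246 bases from *Dct*, had means of 13.9 on Cas-20% and 12.9 on Cas-5%. *Dnajc13*, 25321 bases from *Acpp*, had 230 and 223.

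Markers of other cell types were also compared, as sums of normalized counts per liver. Stellate cell markers (5 of 5 in the table) ran from 3042 to 3859 on Cas-20% and from 3571 to 4928 on Cas-5%, and Kupffer cell markers (5 of 5) from 1736 to 2911 and from 1727 to 2768. Endothelial markers (4 of 4) ran from 1457 to 1697 and from 1523 to 1806. Cholangiocyte markers (5 of 5) were 266 to 352 on Soy-10% against 346 to 519 on Soy-20% + SAA. Neural markers, of which 2 of 5 were in the table, were 17.4 to 32.9 on Cas-20% and 28.2 to 45.5 on Cas-5%, opposite to *Chrna4*. A single Soy-10% liver had 4453 counts of pancreatic acinar markers, against at most 629 on Cas-20%. The part of these cells in the members' levels was not tested.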

How the data were processed

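Liver RNA was sequenced from the 3′ end with the QuantSeq kit in 30 mice, 6 per diet. The authors deposited raw counts per gene, made with the Lexogen QuantSeq pipeline on the Bluebee platform for GRCm38, and a second table of normalized signal, in which the authors divided each library's counts by its DESeq2 size factor (DESeq2 1.30 and R 4.0.3 in the submitters' processing notes). The aligner is not given in the sources used here. Levels and folds of means use the normalized values. Raw counts of 12561 genes kept by filterByExpr were fitted in a single model of 30 livers with edgeR 4.0.16 in R 4.3.3 (TMM, quasi-likelihood F test, two-sided, Benjamini-Hochberg over all genes, call at an adjusted p of 0.05 or less). Correlations used log2 CPM (prior count 2), and 100000 permutations. Replicates are separate mice. Fits were tested on simulated data. Python 3.11.15, scipy 1.17.1 and matplotlib 3.10.9 were used, and DESeq2 1.42.0 as an alternative.

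The members and lists were chosen with earlier results of these data known. Named besides the members were their paralogs, the 3 genes most like each by r over 30 livers, up to 3 genes per list with the smallest adjusted p for casein, and marker genes. *Ncoa3*, the named neighbours, *Acly*, *Fasn*, *Pnpla3* and *Srebf1* were chosen after their values were seen, like the lists of lipogenic and of betaine, sarcosine and methionine genes.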

Additional observations from a re-analysis of the deposited data

Results flagged for a closer look

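Of 30 groups of 6 livers (6 genes on 5 diets), 2 held a liver whose gap to the nearest other exceeded Dixon's 95% critical value, about as many as chance gives at 1 in 20. Both were in *Chrna4*, with 186 normalized counts in Soy-20% liver 1 and 347 in Soy-20% + SAA liver 5. The same livers were the highest of their diet for *Acss2*, with 2874 and 3020.

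Among 19 further genes named from the lists, 6 differed between protein sources in the casein effect minus the soy effect (Cas-5% against Cas-20%, minus Soy-10% against Soy-20% + SAA) at an adjusted p of 0.05 or less in edgeR's test, as did 10.5% of all genes. They had been named for a small p in the casein comparison, which raises this share. The log2 differences were -0.78 for *Adora1* (casein -0.68, soy 0.09), 0.92 for *Alpl* (1.13, 0.21), -0.55 for *Ddt* (-0.96, -0.41), -0.45 for *Hs6st1* (-0.42, 0.02), -1.35 for *Mtmr7* (-1.53, -0.18) and -0.59 for *Zdhhc21*, a palmitoyl transferase (-0.51, 0.08).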

How the results depend on the processing

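Calls with Soy-20% + SAA depended most on the processing. For Soy-20% against Soy-20% + SAA, edgeR called 1793 genes, but 0 with the GC slope as a covariate (1084 at an unadjusted p under 0.05), 1 in a fit of these diets only and 0 without Soy-20% + SAA livers 3 to 6 (860 unadjusted). DESeq2 called 1993. For Cas-20% against Soy-20% + SAA the counts were 2331, 62, 291 and 10, and for Soy-10% against Soy-20% + SAA 3077, 265, 2035 and 131. In these 3 alternatives 0 members were called in the first and second comparison, against 2 and 2. For Soy-10% against Soy-20%, 62 genes were called, 107 with DESeq2 and 103 in a fit of these diets only. For Cas-5% against Soy-10% a fit of these diets only called 1 of 3 members tested, against 3. Leaving out single livers gave 892 to 2669, 1415 to 3181 and 2193 to 3722 genes for the comparisons with Soy-20% + SAA, with the fewest in the first without its liver 6, 34 to 81 for Soy-10% against Soy-20% and 1 to 3 members for Cas-5% against Soy-10%. *Sulf2* gained a call between Soy-20% and Soy-20% + SAA without any of 4 livers (lowest adjusted p 0.024). Without the replicate 6 liver of Cas-5%, the casein log2 fold change of *Acpp* was -6.09. The members' fold changes kept their direction under all alternatives run, except that of *Dct* between Cas-20% and Soy-20% + SAA, which was -0.04 and was positive under 7 of 19. The causes of these differences were not tested. The reduced fits also had fewer livers.

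Replicate numbers did not pair livers across diets: same-numbered livers had a median correlation of 0.013 (60 pairs, 10 over 0.1), against -0.005 for other pairs. With the number as a block, 1813, 2324, 903, 3072, 3079 and 55 genes were called for Soy-20% against Soy-20% + SAA, Cas-20% against Soy-20% + SAA, Cas-5% against Soy-10%, Cas-5% against Cas-20%, Soy-10% against Soy-20% + SAA and Soy-10% against Soy-20%, and the counts of members called were 2, 2 and 3, as without it. The 3 members called between Cas-5% and Soy-10% include *Dct* and *Acpp*, whose calls are no support for a difference there. Counts of at most 11 reads per liver limit what can be said of *Dct*, *Chrna4* and *Acpp* on Cas-5%.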
